A study of Mus musculus with 24 samples.

Results

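The NEDD4 family of ubiquitin ligases was followed through 24 RNA-seq libraries of myeloid-derived suppressor cells (MDSCs), a mixed population of immature myeloid cells that accumulates in hosts with tumours and dampens T cell responses. The members followed were the 7 genes Nedd4, Nedd4l, Itch, Wwp1, Wwp2, Smurf1 and Smurf2. They were found by symbol among the 23479 genes of the deposited table, and all 7 had reads in every library. The family was chosen for the behaviour of 1 of them: Nedd4 was the gene whose response to lymphodepletion differed between the genotype labels in monocytic MDSCs. Its values in those cells are therefore a description without a test, in every comparison that uses them. The other 6 members, and Nedd4 in polymorphonuclear MDSCs, were tested.

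The cells were sorted from spleen into a monocytic (M-MDSC) and a polymorphonuclear (PMN-MDSC) fraction, and every host carried a tumour of the mouse melanoma line B16, established above 25 mm2 before treatment. The 4 groups within each cell type were IL-6KO lymphodepleted (strain B6.129S2-Il6tm1Kopf/J), IL-6KO untreated (the same strain), WT lymphodepleted (C57BL/6) and WT untreated (C57BL/6), with 3 libraries each. Lymphodepleted mice received cyclophosphamide and fludarabine, chemotherapy drugs that kill lymphocytes and dividing cells, and spleens were taken 7 days after treatment. The design text counts 3 mice for each group except the lymphodepleted IL-6KO one, for which it gives no number. It does not say whether libraries of the 2 cell types with 1 number share a mouse. No ages are given, and the knockout is of the whole body, so an effect of IL-6 on these cells cannot be told apart from one through other tissues or from the strain.

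Il6 itself went against the labels. It lay between 16.2 and 220 normalized counts in the 12 KO-labelled libraries and between 0 and 7.20 in the 12 WT-labelled libraries, so the groups are called KO-labelled and WT-labelled throughout, and each direction between genotypes is a direction between labels. Markers of each cell type were present. The 8 monocyte genes summed to between 20702 and 32170 normalized counts in M-MDSCs, against 2878 to 6777 in PMN-MDSCs. In every pair of groups limma called 1 of these 8 lower in M-MDSCs (adjusted p under 0.05), and 6 or 7 higher. The 7 neutrophil genes summed to between 2794 and 22069 in M-MDSCs, against 82442 to 150214 in PMN-MDSCs. Ly6g, a further neutrophil marker of the list, had no values. Depth was 7237462 to 11193088 reads in M-MDSC libraries and 3249647 to 9999731 in PMN-MDSC libraries. PMN-MDSC libraries also varied more: their mean correlation with their own group was 0.872 to 0.937, against 0.954 to 0.978 in M-MDSCs. In these bulk samples fewer cells of a type and less RNA per cell cannot be told apart.

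Ubiquitin ligases choose the proteins to which ubiquitin is attached. Members of the NEDD4 family carry a C2 domain that binds membranes, WW domains that bind short proline-rich motifs in a substrate or adaptor, and a catalytic HECT domain that takes ubiquitin from an E2 enzyme and passes it to the substrate. They are known for removing receptors and channels from the cell surface and for limiting TGF-beta and T cell receptor signalling, and several are held inactive until an adaptor such as Ndfip1 or an arrestin-domain protein opens them.

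Promoter sequence was available for 4 of the 7 members (RefSeq, GRCm38.p6). The 2 start sites of Nedd4, the member by which the family was chosen, are printed with that of Wwp2. Wwp2 was the member that separated the cell types most firmly. Each sequence is the 250 bases before a listed start site, on the plus strand. The Wwp2 window ends at 107436369, beyond the annotated start of the gene at 107436334, so its last bases lie within the gene. Capitals mark matches, on either strand, to TTCNNNGAA (the motif of STAT factors, which act downstream of IL-6), TTGCNNAA (C/EBP), TTTNNCGC (E2F), CCAAT (NF-Y) and GGGCGG (Sp1).

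Nedd4 first start, chr9:72662081-72662330: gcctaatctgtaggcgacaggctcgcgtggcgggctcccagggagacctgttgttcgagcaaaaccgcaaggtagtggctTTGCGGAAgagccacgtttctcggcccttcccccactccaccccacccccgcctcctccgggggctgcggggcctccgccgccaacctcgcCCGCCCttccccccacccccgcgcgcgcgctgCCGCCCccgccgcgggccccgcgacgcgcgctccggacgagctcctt

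Nedd4 second start, chr9:72693048-72693297: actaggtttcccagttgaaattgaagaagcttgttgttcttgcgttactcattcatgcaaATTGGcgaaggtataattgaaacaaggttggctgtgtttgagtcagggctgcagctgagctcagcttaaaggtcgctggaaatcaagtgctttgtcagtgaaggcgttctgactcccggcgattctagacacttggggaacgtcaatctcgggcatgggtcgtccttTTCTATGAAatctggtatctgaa

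Wwp2, chr8:107436120-107436369: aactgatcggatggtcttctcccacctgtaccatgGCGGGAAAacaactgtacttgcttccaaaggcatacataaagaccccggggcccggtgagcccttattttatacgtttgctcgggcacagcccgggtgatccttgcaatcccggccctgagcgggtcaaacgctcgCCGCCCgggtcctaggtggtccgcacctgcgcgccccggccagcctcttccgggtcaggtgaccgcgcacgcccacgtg

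The first Nedd4 window is 74.0% G and C and holds 1 C/EBP and 2 Sp1 matches, while the second is 46.0% G and C and holds 1 STAT and 1 NF-Y match. The Wwp2 window, at 62.8% G and C, holds 1 E2F and 1 Sp1 match. Over the 32851 promoter windows of the table, 7.02% hold the STAT letters, 9.56% those of C/EBP, 4.28% those of E2F, 33.8% those of NF-Y and 32.7% those of Sp1, and the median window is 52.4% G and C. The deposited values give 1 number per gene, so they do not say which Nedd4 start was used.

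The make-up of the family differed between the cell types. Set per kilobase of exon, so that genes of different length can be compared, the 7 members summed to a mean of 433 to 542 in the M-MDSC groups, against 703 to 755 in the PMN-MDSC groups. The total of all normalized counts was also higher in PMN-MDSC libraries (8489702 to 12052954) than in M-MDSC libraries (6044348 to 7047105). The family sums therefore do not show a larger share of all counts in PMN-MDSCs. Itch, which restrains T cell activation and whose loss gives the itchy mouse, was the highest member in every M-MDSC group, with 30.1 to 40.0% of the family total. Wwp2, a close relative of Wwp1 and Itch, was the highest in 3 of the 4 PMN-MDSC groups. In untreated KO-labelled PMN-MDSCs Wwp2 averaged 227 ± 65.0 and Itch 234 ± 50.6 per kilobase (SD, n = 3), closer than their spread. That order turned when exons of basic transcripts alone were used, to 434 for Wwp2 and 424 for Itch.

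**Figure D1:**
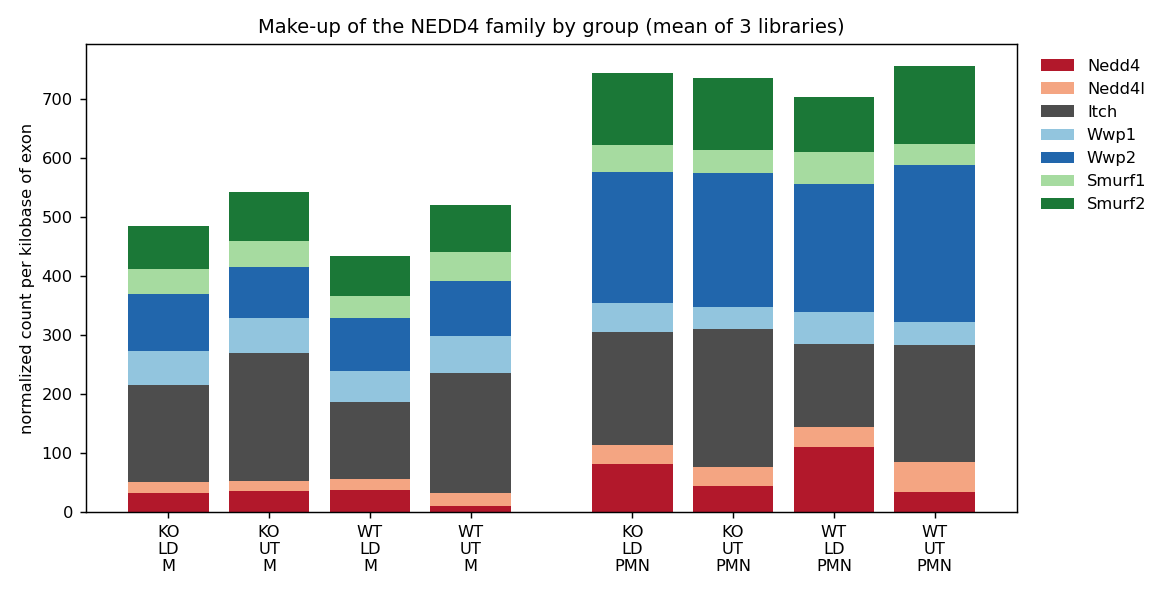
Mean normalized count per kilobase of exon for the 7 members, stacked by group (KO, WT: genotype label; LD: lymphodepleted; UT: untreated; M, PMN: cell type; 3 libraries each). Nedd4, at the foot of each bar, is thinnest in untreated WT-labelled M-MDSCs at 9.68 per kilobase and thickest in lymphodepleted WT-labelled PMN-MDSCs at 111.

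Nedd4, the founding member, acts on membrane receptors and is needed for full T cell activation. Its highest library held 23.8 times the level of its lowest, against 2.39 to 5.27 times for the other 6. The lowest was an untreated WT-labelled M-MDSC library, of a group by which the family was chosen, so this range is a description. Over the PMN-MDSC libraries Nedd4 lay between 321 and 2021 normalized counts, and Nedd4l between 196 and 1032. Nedd4 held 1.90 ± 0.50% of the family total in untreated WT-labelled M-MDSCs and 15.5 ± 8.01% in lymphodepleted WT-labelled PMN-MDSCs (SD, n = 3). In M-MDSCs Nedd4 had 257, 442 and 336 normalized counts in the lymphodepleted KO-labelled libraries and 365, 356 and 464 in the untreated KO-labelled ones. It had 443, 364 and 429 in the lymphodepleted WT-labelled libraries and 118, 84.9 and 116 in the untreated WT-labelled ones. The untreated WT-labelled group stood alone below the other 3 groups, whose libraries overlapped.

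In PMN-MDSCs Nedd4 had 618, 1505 and 544 normalized counts in the lymphodepleted KO-labelled libraries and 321, 627 and 489 in the untreated KO-labelled ones. It had 892, 733 and 2021 in the lymphodepleted WT-labelled libraries and 351, 349 and 424 in the untreated WT-labelled ones. Library 3 of the lymphodepleted WT-labelled group and library 2 of the lymphodepleted KO-labelled group were far above the rest. Ordered by mean over all 8 groups, Nedd4 was lowest in untreated WT-labelled M-MDSCs (106), and from the second group (345) to the highest (1216, lymphodepleted WT-labelled PMN-MDSCs) each group overlapped with its neighbour.

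**Figure D2:**
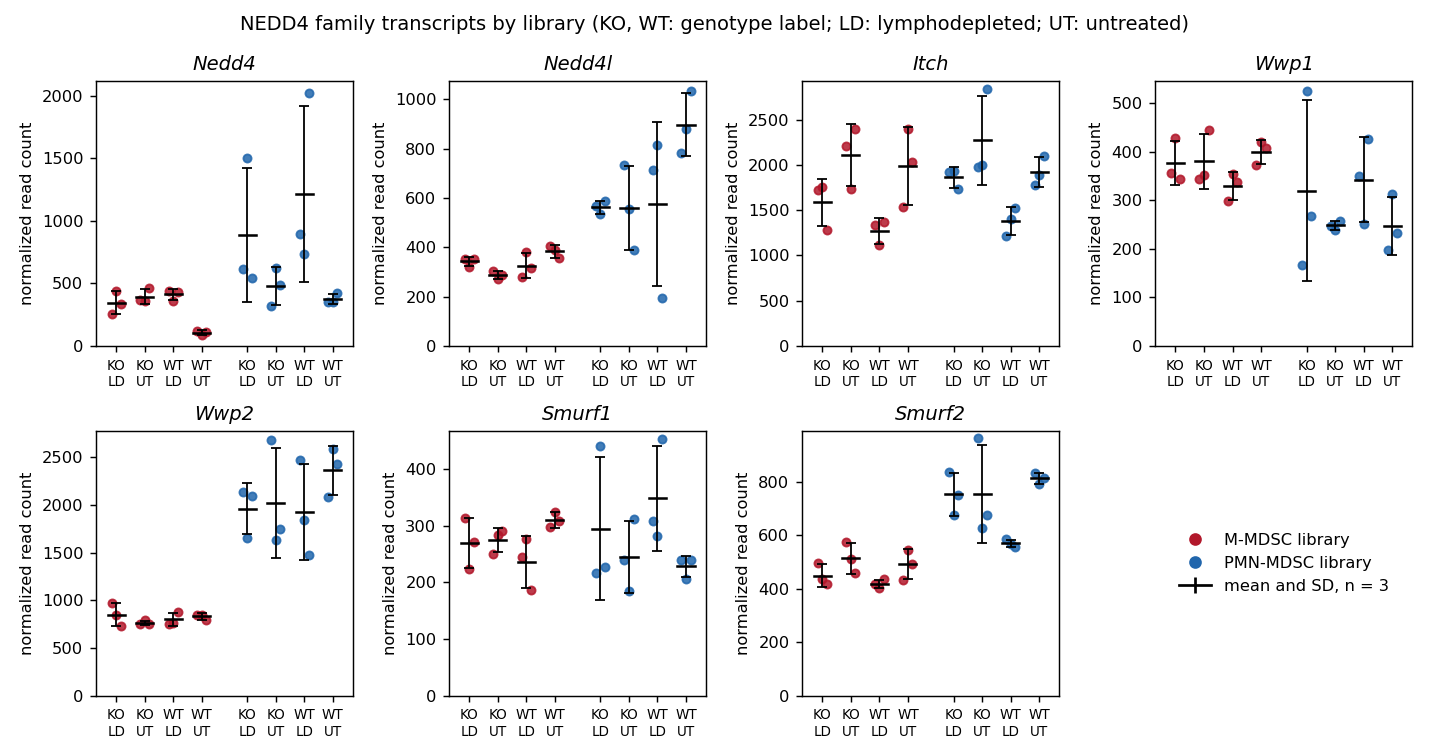
Normalized read count of each member in every library, as points, with bars for the group mean and its SD (n = 3), M-MDSC libraries on the left of each panel and PMN-MDSC libraries on the right. Nedd4 in untreated WT-labelled M-MDSCs (84.9 to 118) lies below every other library, and Wwp2 separates the cell types without overlap (736 to 968 in M-MDSCs, 1473 to 2680 in PMN-MDSCs).

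Lymphodepletion in WT-labelled M-MDSCs was accompanied by more Nedd4, the gene by which the family was chosen. Itch was called lower, a call that several alternatives lost. Nedd4 was 3.88-fold higher, a log2 difference of 1.96 ± 0.20 (SE, n = 3 libraries each), with no overlap. Because the family was chosen on these libraries, that value has no test. Among the 6 other members, Itch fell and 5 were not called at an adjusted p under 0.05, in a comparison in which 18.3% of 11570 tested genes were called and 8.82% were called lower. Their median log2 difference was -0.26, against -0.07 over all genes tested.

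Itch had 1331, 1112 and 1367 normalized counts in lymphodepleted WT-labelled M-MDSCs and 1539, 2399 and 2031 in untreated WT-labelled M-MDSCs. Every lymphodepleted library was below every untreated one, by 1.55-fold on average (log2 difference -0.63 ± 0.18, limma with Benjamini-Hochberg adjusted p = 0.0267). The call was lost under quantile normalization (adjusted p = 0.0643). It was also lost without library 2 or 3 of the lymphodepleted group (adjusted p = 0.0746 and 0.0542) and without library 2 or 3 of the untreated group (0.121 and 0.0916).

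Smurf1, which marks SMAD proteins and the GTPase RhoA for degradation, had 245, 275 and 186 normalized counts in lymphodepleted WT-labelled M-MDSCs, against 297, 324 and 309 in untreated ones. Wwp1, known to act on Krüppel-like factors, had 299, 355 and 338 in lymphodepleted WT-labelled M-MDSCs, against 372, 420 and 408 in untreated ones. Neither gene's groups overlapped, and neither passed the test (Smurf1 log2 difference -0.41 ± 0.17, limma adjusted p = 0.105; Wwp1 -0.28 ± 0.14, adjusted p = 0.197). With Itch they made 3 of 6 members lower without overlap, in a comparison in which 21.9% of genes were. Without library 2 of the lymphodepleted group Smurf1 was the member called in place of Itch. Nedd4l, Wwp2 and Smurf2 overlapped between the groups, with log2 differences between -0.24 and -0.06.

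Dividing-cell and other transcripts moved with the same groups. All 10 of 10 dividing-cell genes tested were called higher in lymphodepleted WT-labelled M-MDSCs, where their summed count was 14732 to 24589, against 751 to 819 in untreated WT-labelled M-MDSCs. All 5 of 5 primary granule genes, made by young granulocyte and monocyte precursors, were also called higher, with sums of 4211 to 15057 against 45.5 to 117. Lymphocyte transcripts were lower: 9 of 10 B cell genes were called lower (sums of 109 to 160 against 626 to 747), as were 8 of 9 natural killer cell genes (263 to 518 against 1764 to 2086) and 1 of 9 T cell genes (92.2 to 133 against 246 to 360). Of the neutrophil genes, 4 of 7 were called higher (5963 to 22069 against 3242 to 3511), as were 2 of 6 macrophage genes (565 to 878 against 382 to 432), and 1 of 8 monocyte genes was called lower. Nedd4 itself averaged 375 in untreated WT-labelled PMN-MDSCs against 106 in untreated WT-labelled M-MDSCs, a group by which the family was chosen. In untreated KO-labelled cells it averaged 479 in PMN-MDSCs and 395 in M-MDSCs, with overlap. No gene of these lists was at 0 in every library of either WT-labelled M-MDSC group. Their part in the values of Nedd4 and Itch was not tested.

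In KO-labelled M-MDSCs lymphodepletion was not accompanied by more Nedd4. Its log2 difference was -0.22 ± 0.20, with overlap between the libraries given above. None of the other 6 members was called by limma, where 11.6% of genes were. Of the 6, 1 had an unadjusted p under 0.05, and edgeR and DESeq2 on the recovered reads called 0 each. Itch had the lowest value, with 1717, 1758 and 1285 normalized counts in lymphodepleted KO-labelled M-MDSCs and 2212, 1732 and 2391 in untreated ones, which overlapped (log2 difference -0.41 ± 0.18, limma adjusted p = 0.161). Nedd4l, known for removing the epithelial sodium channel from the cell surface, was the 1 member whose groups were apart. After lymphodepletion it had 354, 322 and 352, against 303, 271 and 287 without (log2 difference 0.26 ± 0.13, limma adjusted p = 0.25, where 13.7% of genes were higher without overlap).

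The same dividing-cell genes were called higher in KO-labelled M-MDSCs after lymphodepletion too (10 of 10), with sums of 10734 to 24289 against 740 to 7443. All 10 B cell genes were called lower (sums of 177 to 197 against 1152 to 1717), as were all 9 natural killer cell genes (581.7 to 1449 against 6925 to 10093) and 6 of 9 T cell genes (151.5 to 463 against 911 to 1590). Of the neutrophil genes 2 of 7 were called higher (4683 to 10050 against 2794 to 2996), and none of 5 primary granule genes was called (5075 to 13247 against 223 to 7681). No gene of these lists was at 0 throughout a group, and their part in the members' values was not tested. The untreated KO-labelled libraries had 2172, 740 and 7443 dividing-cell counts and 365, 356 and 464 of Nedd4. The untreated WT-labelled libraries had 751 to 819 dividing-cell counts and 84.9 to 118 of Nedd4.

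**Figure D3:**
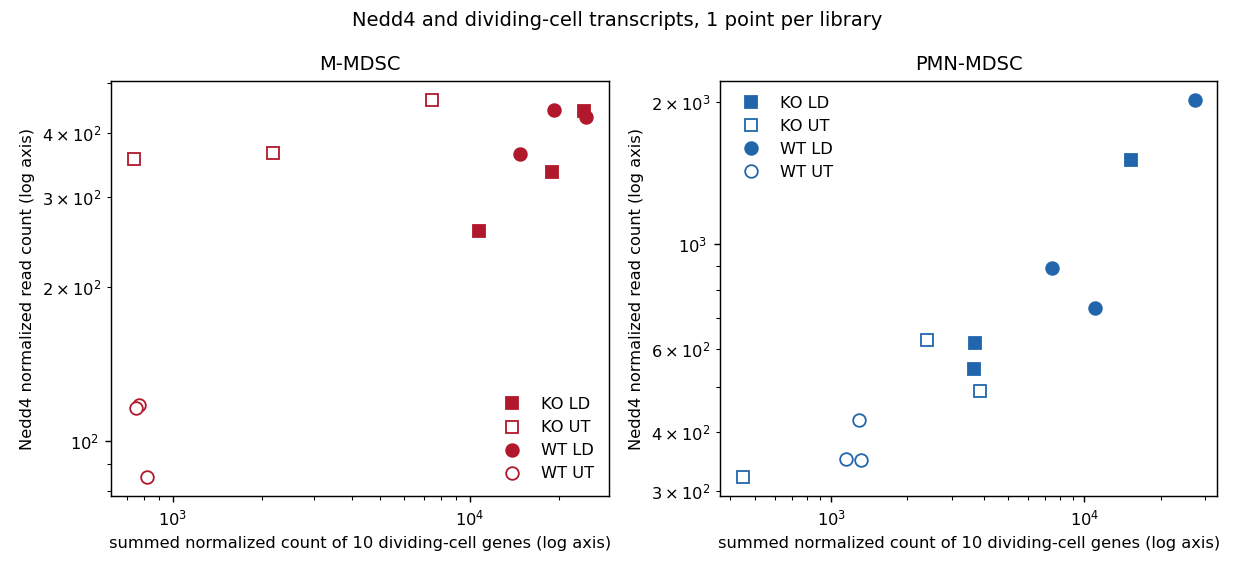
Nedd4 normalized count against the summed normalized count of 10 dividing-cell genes, 1 point per library and both axes logarithmic, in M-MDSCs (left) and PMN-MDSCs (right). In M-MDSCs the 3 untreated KO-labelled libraries have Nedd4 at 356 to 464 and dividing-cell sums of 740 to 7443, and in PMN-MDSCs the highest Nedd4 levels (2021 and 1505) are in the libraries with the highest sums (27257 and 15261).

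Between the labels, untreated M-MDSCs stood apart in Nedd4. It was 3.71-fold higher in KO-labelled than in WT-labelled untreated M-MDSCs (log2 difference 1.89 ± 0.20, no overlap, no test), and -0.29 ± 0.20 with overlap in the lymphodepleted ones. The response to lymphodepletion in KO-labelled minus that in WT-labelled M-MDSCs, the value by which the family was chosen, was -2.18 ± 0.28 for Nedd4. The same quantity lay between 0.03 and 0.50 for the other 6 members. All of these serve as a description. In that contrast limma called 0.00864% of 11570 genes, edgeR called 2 genes and DESeq2 71, while limma called 0 under quantile normalization, with a replicate block and in the fit of all 24 libraries, and 0 to 7 when 1 library was left out.

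None of the other 6 members was called between the labels in untreated M-MDSCs, where 4.03% of genes were, or in lymphodepleted M-MDSCs, where 0.207% were. Unadjusted p-values under 0.05 numbered 1 and 0, and edgeR and DESeq2 called 0 in both. Nedd4l had 303, 271 and 287 normalized counts in KO-labelled untreated M-MDSCs and 407, 389 and 355 in WT-labelled ones. It was lower without overlap in the opposite direction to Nedd4, but did not pass (log2 difference -0.42 ± 0.13, limma adjusted p = 0.0954). Wwp2 and Smurf1 were also lower without overlap in the KO-labelled untreated cells, by smaller amounts (log2 differences of -0.12 and -0.18), so 3 of 6 members were lower without overlap, in a comparison in which 17.9% of genes were.

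The ratio of Nedd4 to Nedd4l, its closest relative, put these values together. Per kilobase it was 1.17, 2.21 and 1.54 in lymphodepleted KO-labelled M-MDSCs and 1.94, 2.12 and 2.60 in untreated KO-labelled M-MDSCs. It was 2.54, 1.54 and 2.18 in lymphodepleted WT-labelled M-MDSCs and 0.466, 0.351 and 0.526 in untreated WT-labelled ones. The 3 untreated WT-labelled libraries lay below every other M-MDSC library. The ratio contains the Nedd4 values by which the family was chosen, so this too is a description and adds no separate support. The size of the ratio depends on the exons counted: with those of basic transcripts alone, the lymphodepleted KO-labelled M-MDSCs averaged 37.6 for Nedd4 and 35.5 for Nedd4l per kilobase.

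Transcripts of other cell types also differed between the untreated groups. In KO-labelled against WT-labelled untreated M-MDSCs, 8 of 9 natural killer cell genes were called higher (sums of 6925 to 10093 against 1764 to 2086), 6 of 9 T cell genes (911 to 1590 against 246 to 360), 3 of 5 primary granule genes (223 to 7681 against 45.5 to 117) and 1 of 10 dividing-cell genes (740 to 7443 against 751 to 819). No B cell gene of 10 was called, with sums of 1152 to 1717 against 626 to 747. Of the dendritic cell genes 2 of 5 were called higher (1145 to 1806 against 842 to 905), as was 1 of 8 monocyte genes (22397 to 32170 against 26338 to 29309), and 1 of 7 neutrophil genes was called lower (2794 to 2996 against 3242 to 3511). None of these genes was at 0 throughout a group. Their part in the Nedd4 difference was not tested.

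In PMN-MDSCs, libraries that had no part in choosing the family, Nedd4 rose with lymphodepletion under the WT label. It averaged 1216 ± 703 normalized counts in lymphodepleted and 375 ± 42.9 in untreated WT-labelled PMN-MDSCs (SD, n = 3), 2.93-fold higher without overlap (log2 difference 1.55 ± 0.39, limma adjusted p = 0.0265). It was the 1 member of 7 called, in a comparison in which 10.9% of 12971 tested genes were called and 4.14% were called higher. The median of all genes was -0.20 here and -0.005 with edgeR's scaling, and set against that median Nedd4 differed by 1.75. The call was lost without library 3 of the lymphodepleted group (log2 difference 1.11, limma adjusted p = 0.0853) or without library 1, 2 or 3 of the untreated group (adjusted p = 0.0935, 0.0937 and 0.0622).

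Dividing-cell transcripts were again higher with it. Of the 10 genes, 9 were called higher in lymphodepleted WT-labelled PMN-MDSCs, with sums of 7454, 11025 and 27257, against 1143 to 1313 in untreated ones. The library with the highest sum had the highest Nedd4. Leaving out the 2 lymphodepleted PMN-MDSC libraries with the highest sums, a choice made after the data were seen, gave Nedd4 a log2 difference of 1.11 (limma adjusted p = 0.0154). The WT-labelled lymphodepleted libraries that stayed had sums of 7454 and 11025, so this omission did not remove the dividing-cell difference. The same Nedd4 difference without library 3 of that group alone did not pass (limma adjusted p = 0.0853). Primary granule genes were higher as well (3 of 5 called, sums of 411 to 1332 against 6.50 to 28.8). All 10 B cell genes were called lower (346 to 584 against 2194 to 2370), with 2 of 8 tested T cell and 1 of 9 natural killer cell genes called lower. The T cell gene Cd3e was at 0 in all 3 lymphodepleted libraries. Of 7 neutrophil genes 3 were called higher and 2 lower (sums of 82442 to 150214 against 117355 to 140217), 1 of 4 tested erythroid genes was called higher, and 1 of 5 tested dendritic cell genes and 1 of 8 monocyte genes were called lower. Their part in the Nedd4 difference was not tested.

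No other member was called there. Smurf2, which acts on SMAD proteins and TGF-beta receptors, had 584, 567 and 557 normalized counts in lymphodepleted WT-labelled PMN-MDSCs, against 832, 791 and 812 in untreated ones. Every lymphodepleted library was below every untreated one, far apart for the spread within each group. In the fit, which shares 1 estimate of spread over the PMN-MDSC groups, Smurf2 was not called (log2 difference -0.51 ± 0.20, limma adjusted p = 0.103), and it was called in the fit over all 24 libraries (adjusted p = 0.0214). Itch, with 1210.2, 1406 and 1521 in lymphodepleted and 1775, 1886 and 2098 in untreated WT-labelled PMN-MDSCs, was also lower without overlap (log2 difference -0.48 ± 0.19, limma adjusted p = 0.108). Smurf1 was higher without overlap, with 308, 282 and 453 in lymphodepleted and 239, 206 and 239 in untreated ones (log2 difference 0.58 ± 0.31, limma adjusted p = 0.231).

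Counted without Nedd4, 2 members were lower and 1 higher without overlap in that comparison, where 20.9% and 12% of genes were. Against the median of all genes, the differences of Smurf2, Itch and Smurf1 were -0.31, -0.28 and 0.78. Nedd4l had 713, 814 and 196 in lymphodepleted and 780.5, 880 and 1032 in untreated WT-labelled PMN-MDSCs, where library 3, the one with the highest Nedd4, had the lowest Nedd4l of all 24 libraries. Per kilobase that library held 16.6 times as much Nedd4 as Nedd4l, against 1.45 and 2.02 in the other 2 of its group and 0.639 to 0.724 in the untreated WT-labelled libraries.

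In KO-labelled PMN-MDSCs Nedd4 was 1.72-fold higher after lymphodepletion, with overlap (log2 difference 0.79 ± 0.39, limma adjusted p = 0.529). None of 7 members was called, where 0.224% of genes were, none had an unadjusted p under 0.05, and edgeR and DESeq2 called 0. The difference between the labels in Nedd4's response, KO-labelled minus WT-labelled, was -0.77 ± 0.56 in PMN-MDSCs (limma adjusted p = 0.656, where 0% of genes were called). It had the sign seen in M-MDSCs and did not pass the test. No member was called in this interaction, none had an unadjusted p under 0.05, and edgeR and DESeq2 called 0.

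Between the labels within PMN-MDSCs, limma called none of 7 members in untreated cells, where 0.00771% of genes were called, and none in lymphodepleted cells, where 0.0154% were. Unadjusted p-values under 0.05 numbered 0 and 1, and edgeR and DESeq2 called 0 in both. Nedd4 was 0.31 ± 0.39 apart in untreated and -0.46 ± 0.39 apart in lymphodepleted PMN-MDSCs (log2, KO-labelled minus WT-labelled). Nedd4l in untreated KO-labelled PMN-MDSCs (732, 554 and 391) lay below the untreated WT-labelled ones (780.5, 880 and 1032), as it did in M-MDSCs, without passing the test (log2 difference -0.72 ± 0.40, limma adjusted p = 0.933), in a comparison in which 6.91% of genes were lower without overlap. In lymphodepleted PMN-MDSCs, Itch (1917, 1937 and 1731) and Smurf2 (835, 674 and 748) were higher without overlap in KO-labelled than in WT-labelled libraries, where 5.32% of genes were, and neither passed the test.

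**Figure D4:**
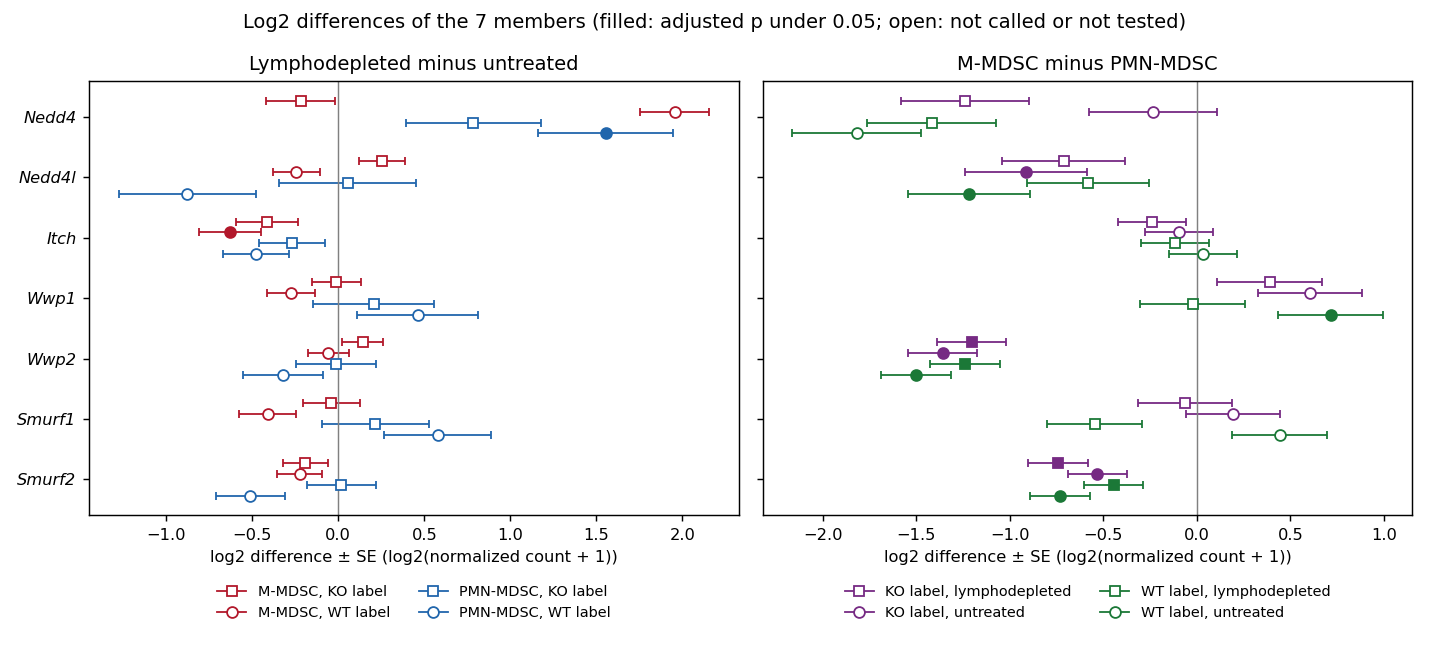
Log2 differences of the 7 members with their standard errors, lymphodepleted minus untreated (left) and M-MDSC minus PMN-MDSC (right), with filled points for an adjusted p under 0.05 and open points for members not called or, for Nedd4 where M-MDSCs are used, not tested. The WT-labelled responses of Nedd4 (1.96 in M-MDSCs and 1.55 in PMN-MDSCs) stand to the right, and Wwp2 and Smurf2 are filled in all 4 comparisons of the cell types.

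Wwp2 and Smurf2 were called lower in M-MDSCs than in PMN-MDSCs in all 4 pairs of groups, comparisons in which 39.3 to 50.5% of genes were called. The share of all genes without overlap is not given for these pairs, so such separation is not shown to be particular to the 2 members. In KO-labelled lymphodepleted cells Wwp2 had 968, 850 and 736 normalized counts in M-MDSCs, against 2131, 1657 and 2097 in PMN-MDSCs, and 754, 791 and 754 in the untreated ones under that label, against 2680, 1629 and 1744. It had 756, 765 and 878 in lymphodepleted WT-labelled M-MDSCs, against 2469, 1843 and 1473, and 850.2, 851 and 793 in untreated WT-labelled M-MDSCs, against 2083, 2585 and 2429. No M-MDSC library reached any PMN-MDSC library. The log2 differences ran from -1.50 ± 0.19 in untreated WT-labelled cells (limma adjusted p = 6.25e-07) to -1.20 ± 0.19 in lymphodepleted KO-labelled cells (adjusted p = 1.31e-05). Quantile normalization made them smaller, between -0.87 in untreated WT-labelled cells and -0.68 in lymphodepleted KO-labelled cells, and Wwp2 was still called in all 4 pairs (limma adjusted p from 4.68e-05 to 0.000646). It moved the median of all genes by 0.154 in the untreated WT-labelled pair.

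In KO-labelled lymphodepleted cells Smurf2 had 496, 434 and 416 normalized counts in M-MDSCs, against 835, 674 and 748 in PMN-MDSCs, and in KO-labelled untreated cells 574, 509 and 458 in M-MDSCs, against 962, 625 and 674 in PMN-MDSCs. In WT-labelled lymphodepleted cells it had 416, 403 and 434 in M-MDSCs, against 584, 567 and 557 in PMN-MDSCs, and in WT-labelled untreated cells 434, 546 and 491, against 832, 791 and 812. The groups did not overlap in any of the 4 pairs, and the log2 differences were between -0.74 and -0.45 (limma adjusted p from 0.000478 to 0.028). The total of all normalized counts was also lower in M-MDSC libraries (6044348 to 7047105, against 8489702 to 12052954 in PMN-MDSC libraries). In untreated WT-labelled cells the Smurf2 difference was -0.40 under quantile normalization (limma adjusted p = 0.0275), against -0.73 without it. In lymphodepleted WT-labelled cells the Smurf2 call was lost under quantile normalization (limma adjusted p = 0.0943) and without library 1 or 2 of either group (adjusted p from 0.0504 to 0.0774). In untreated KO-labelled cells it was lost under quantile normalization (0.205) and without library 1 of the PMN-MDSCs (0.0817).

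The other tested members separated the cell types in fewer pairs. Nedd4l was called lower in M-MDSCs in untreated WT-labelled cells (383 ± 26.4 against 897 ± 127 normalized counts, SD, n = 3; log2 difference -1.22 ± 0.33, limma adjusted p = 0.00378) and in untreated KO-labelled cells (287 ± 16.2 against 559 ± 171; -0.91 ± 0.33, adjusted p = 0.0271). The Nedd4l call in KO-labelled cells was lost without M-MDSC library 2 or 3 or PMN-MDSC library 1 or 2 of those groups (adjusted p from 0.0565 to 0.136). Wwp1 was called higher in M-MDSCs in untreated WT-labelled cells, with 372, 420 and 408 against 197, 313 and 233 (log2 difference 0.71 ± 0.28, limma adjusted p = 0.0378), and that call was lost without any 1 of the M-MDSC libraries and without PMN-MDSC library 1 or 3 of those groups (adjusted p from 0.0585 to 0.147). In lymphodepleted cells limma did not call Nedd4l with all libraries, while DESeq2 on the recovered reads called it lower in M-MDSCs under the WT label (-0.81, adjusted p = 0.0334). With limma it was called lower in M-MDSCs under both labels without library 3 of the lymphodepleted WT-labelled PMN-MDSCs, the one with the lowest Nedd4l (WT-labelled log2 difference -1.23, adjusted p = 3.58e-05; KO-labelled -0.71, adjusted p = 0.00223). Per kilobase the ratio of Wwp1 to Wwp2 was, for KO-labelled lymphodepleted cells, 0.507 to 0.695 in M-MDSCs, against 0.107 to 0.437 in PMN-MDSCs, and 0.612 to 0.812 in untreated KO-labelled M-MDSCs, against 0.127 to 0.204.

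In all, 4 of the 6 tested members were called in untreated WT-labelled cells, where 50.5% of 13457 genes were, 3 in untreated KO-labelled cells (43.8%), 2 in lymphodepleted WT-labelled cells (39.3%) and 2 in lymphodepleted KO-labelled cells (47.4%). With 6 members, these counts lie near the share of all genes. Itch and Smurf1 were called in none of the 4. Itch had log2 differences of -0.24 to 0.03 between the cell types, all of them above 0 under quantile normalization, where it was called higher in M-MDSCs in untreated KO-labelled cells (0.66, limma adjusted p = 0.0121) and in untreated WT-labelled cells (0.75, adjusted p = 0.00434).

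Nedd4, described without a test, was lower in M-MDSCs than in PMN-MDSCs by a log2 difference of -1.82 ± 0.34 in untreated WT-labelled cells, -1.42 ± 0.34 in lymphodepleted WT-labelled cells and -1.24 ± 0.34 in lymphodepleted KO-labelled cells, without overlap in these 3. In untreated KO-labelled cells the difference was -0.24 ± 0.34 and the libraries overlapped. Whether a member responded differently in the 2 cell types was tested over all 24 libraries, a test added after the data were seen. None of the other 6 members was called, where 0.788% of genes were under the WT label and 0.0966% under the KO label. In that fit 1 member had an unadjusted p under 0.05, Smurf1 under the WT label (log2 difference between the responses -0.99 ± 0.36, limma adjusted p = 0.192).

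Partners of the family were described from lists of named genes, the largest of them substrates. Of 18 activators and adaptors, which bring the ligases to substrates or open them, 16 were tested in M-MDSCs. With lymphodepletion under the WT label, 3 fell and none rose, where 18.3% of all genes were called and 8.82% were called lower, and their median log2 difference was -0.19, against -0.07 over all genes. Tnfaip3, the NF-kappaB inhibitor A20, which works together with Itch, averaged 572 ± 116 normalized counts in lymphodepleted and 1332 ± 43.1 in untreated cells (SD, n = 3; log2 difference -1.24 ± 0.21, limma adjusted p = 0.00131). Ldlrad4 and Ldlrad3, membrane proteins with PY motifs, fell by 0.94 and 0.71 on the log2 scale.

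Of the 6 inhibitors and modifiers, which phosphorylate, bind or deubiquitinate the ligases, 3 fell, beside the same 8.82% of all genes. Sgk1, the kinase that phosphorylates and restrains Nedd4l, averaged 369 ± 51.6 in lymphodepleted and 834 ± 10.4 in untreated WT-labelled M-MDSCs (log2 difference -1.18 ± 0.17, limma adjusted p = 0.000339). Fyn, a kinase that phosphorylates Itch, fell by 1.10 and N4bp1, an inhibitor of Itch, by 0.50 on the log2 scale. The fall of Fyn stood beside the lower T and natural killer cell sums given above, whose part in it was not tested. None of the 6 E1 and E2 enzymes, which load ubiquitin, was called by limma. Uba1, the main E1 enzyme, averaged 1415 ± 260 in lymphodepleted and 1199.6 ± 94.0 in untreated cells, and Ube2d3 1301 ± 162 and 1326 ± 65.5 in the same groups.

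Among 17 tested HECT ligases outside the 7 members 1 rose and 2 fell, a share near the 18.3% of all genes called. G2e3, a ligase of dividing cells, averaged 274 ± 33.7 in lymphodepleted and 99.1 ± 3.59 in untreated WT-labelled M-MDSCs (log2 difference 1.45 ± 0.26, limma adjusted p = 0.00189), beside the dividing-cell sums given above. Among 28 tested substrates 3 rose and 10 fell, against the same 18.3% called either way. Prkcq, the T cell kinase PKC-theta, a substrate of Itch, averaged 32.2 ± 8.60 and 178 ± 29.2 (log2 difference -2.45 ± 0.30, limma adjusted p = 0.000163), beside T and natural killer cell sums that were also lower. Smad3, a TGF-beta signal transducer and Smurf substrate, fell by 1.03 on the log2 scale, and the chemokine receptor Cxcr4, which Itch directs to lysosomes, rose (586 ± 101 against 277 ± 38.3; log2 difference 1.07 ± 0.21, limma adjusted p = 0.00272).

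Under the KO label, lymphodepletion of M-MDSCs gave 2 activators lower, Tnfaip3 (log2 difference -0.87) and Smad7 (-0.67). It also gave 1 inhibitor or modifier lower (Fyn, -1.25), 1 other HECT ligase higher (G2e3, 1.22) and 1 lower (Herc3, -0.70). In that comparison 11.6% of all genes were called. Of 28 substrates, 2 rose and 5 fell, led by Prkcq (-2.44), Smad3 (-1.16) and the transcription factor Klf2 (-1.22), a known target of Smurf1. The falls of Prkcq, Fyn and Klf2 stood beside 6 of 9 T cell and 9 of 9 natural killer cell genes called lower, and their part in them was not tested. Between the labels in untreated M-MDSCs, where 4.03% of all genes were called, the 2 of 28 substrates called were both higher in KO-labelled cells. Prkcq averaged 490 ± 61.1 in KO-labelled and 178 ± 29.2 in WT-labelled cells (log2 difference 1.47 ± 0.30, limma adjusted p = 0.0231), beside the higher T and natural killer cell sums of the KO-labelled libraries, and Smad3 848 ± 98.9 and 579 ± 52.2 (0.55 ± 0.14, adjusted p = 0.0495). No activator, inhibitor or modifier, E1, E2 or other HECT ligase was called there.

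In WT-labelled PMN-MDSCs, 6 of 17 tested activators fell with lymphodepletion and none rose, where 10.9% of all genes were called (median log2 difference -0.60, against -0.20 over all genes). Arrdc3, an arrestin-domain adaptor that brings NEDD4 ligases to membrane receptors, averaged 775 ± 296 in lymphodepleted and 2181 ± 673 in untreated cells (log2 difference -1.51 ± 0.32, limma adjusted p = 0.0133). Its relative Arrdc2 averaged 91.9 ± 20.8 and 246 ± 40.1 (-1.42 ± 0.31, adjusted p = 0.0147), and Tnfaip3 653 ± 315 and 1545 ± 186 (-1.37 ± 0.33, adjusted p = 0.0222). Of the inhibitors and modifiers, E1 and E2 enzymes, none was called. Among the other HECT ligases G2e3 rose by 1.33 on the log2 scale, and of 28 substrates 1 rose and 5 fell, beside the same 10.9%, among them the epithelial sodium channel subunit Scnn1a (-1.09), Bcl10 (-0.70) and Cxcr4 (-0.75). Cxcr4 was thus called in opposite directions in the 2 cell types, a contrast that was not itself tested.

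Partners also differed between the cell types. In untreated WT-labelled M-MDSCs against PMN-MDSCs, 3 of 18 activators were higher and 9 lower, and 5 of 28 substrates were higher and 12 lower, beside the 50.5% of all genes called. Rnf11, a small adaptor with a PY motif, averaged 125 ± 3.36 in M-MDSCs and 1239 ± 186 in PMN-MDSCs (log2 difference -3.29 ± 0.24, limma adjusted p = 1.49e-10), and Arrdc3 427 ± 58.7 and 2181 ± 673. Ldlrad3 went the other way, with 1131 ± 184 and 147 ± 59.4 (2.99 ± 0.34, adjusted p = 1.79e-07). The substrates Igf1r, the insulin-like growth factor receptor that Nedd4 acts on, Cxcr4 and Notch1 were lower in M-MDSCs, with log2 differences of -4.73, -3.52 and -2.39. Of 19 other HECT ligases 1 was higher and 10 lower, among them Herc1 (3355 ± 162 and 7133 ± 207), while Hecw2 was near 0 in M-MDSCs (0.31 ± 0.54 against 31.9 ± 11.4). The inhibitors and modifiers gave 3 higher and 2 lower, N4bp1 being lower (-1.59) and Sgk3 and Mapk8 higher (0.84 and 1.10). The E1 and E2 enzymes gave 1 of each, Ube2l3 higher (1.23) and Ube2d3 lower (-0.71).

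The 5 genes whose log2 levels followed Nedd4 most closely over the 12 M-MDSC libraries, of 11569 genes ranked, were Slc7a1, an arginine transporter (Pearson r = 0.919), Chst11, a chondroitin sulfotransferase (0.909), Gpc1, a heparan sulfate proteoglycan (0.908), Ubash3a, a regulator of T cell receptor signalling (0.906) and Shmt2, a mitochondrial enzyme of serine and glycine metabolism (0.904). These correlations describe libraries that share cell type and groups, and they were picked as the highest of many. Gpc1 averaged 512, 418, 583 and 152 normalized counts in M-MDSCs that were KO-labelled lymphodepleted, KO-labelled untreated, WT-labelled lymphodepleted and WT-labelled untreated. Over the 12 PMN-MDSC libraries, which had no part in that ranking, the same genes had r of 0.953 for Gpc1, 0.870 for Ubash3a, 0.532 for Slc7a1, 0.271 for Shmt2 and -0.891 for Chst11. Gpc1 and Ubash3a thus had high r in both cell types, while that of Chst11 changed sign. How many of all genes reach such r in PMN-MDSCs is not given. In 2 of those libraries Nedd4 was far above the rest (2021 and 1505 normalized counts).

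The genes lie apart in the genome (GRCm38, GENCODE vM21). Nedd4 is at chr9:72662331-72749851, Itch at chr2:155133481-155226855, Wwp1 at chr4:19608296-19709004, Wwp2 at chr8:107436334-107559290, Smurf1 at chr5:144876495-144965899 and Smurf2 at chr11:106820061-106920747, with Nedd4l on chromosome 18. Each overlaps at least 1 other annotated gene, among them 4 loci of unsettled status on the strand of Nedd4, 2 antisense genes at Nedd4l and the protein-coding Gm12353 on the other strand at Wwp1. Whether counting used strand is not given in the sources used here, so reads of such partners may be included.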

How the data were processed

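Total RNA of spleen MDSCs, sorted to a purity above 99%, was sequenced from 100 ng after depletion of ribosomal RNA, per the labels' protocols. The authors deposited signal values, here normalized read counts: each library's reads over a single size factor, since 100% of its values were whole multiples of 1 step (tolerance 0.001). The submitters' processing notes name mm10, DESeq2, HTSeq 0.6.1 and STAR 2.5.3a, and no other setting was found.

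Log2(normalized count + 1) was fitted with limma 3.58.1 (R 4.3.3, trended prior) to the 12 libraries of a cell type, or to all 24 between cell types, for genes with at least 10 normalized counts in 3 libraries. P-values were two-sided and Benjamini-Hochberg adjusted over all genes tested, and called means under 0.05. Folds on this scale understate those of low genes. The test was also run on simulated counts, whose outcome is not given here, so no error rate can be read from them. Alternatives were pseudocounts of 0.5 and 5, no filter, quantile normalization, edgeR 4.0.16 and DESeq2 1.42.0 on recovered reads, a replicate block, 1 fit of all libraries, and omissions. Members, lists and tests were chosen with earlier results of these data known. All members were named; of each other list, up to 3 called genes of smallest adjusted p in a comparison, or the 2 of highest level where none was called. Some genes that this rule would name are not reported here.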

Additional observations from a re-analysis of the deposited data

Results flagged for a closer look

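The response of Nedd4 to lymphodepletion differed between the genotype labels in M-MDSCs, by a log2 difference of -2.175 (KO-labelled minus WT-labelled). The value is the one by which the family was chosen, so it carries no test here. The KO-labelled response was -0.22 and the WT-labelled one 1.96.

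The WT-labelled responses of Smurf1 went in opposite directions in the cell types, and differed by -0.989 (log2, M-MDSC response minus PMN-MDSC response). Every lymphodepleted M-MDSC library was below every untreated one (-0.41), and every lymphodepleted PMN-MDSC library was above every untreated one (0.58). Tested over all 24 libraries, the difference did not pass (limma adjusted p = 0.192).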

How the results depend on the processing

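Over the alternatives other than leaving out 1 library, 859 single-member values stayed on their side of the threshold (or, untested, moved by less than the replicate spread), 8 came to pass it, 6 no longer passed and 1 reversed: Itch in untreated KO-labelled M-MDSCs against PMN-MDSCs was 0.656 with quantile normalization, against -0.10. Another 22 values that passed in neither setting changed sign, the main ones all within 0.242 of 0, among them Nedd4l between the labels in lymphodepleted PMN-MDSCs (-0.403 without the 2 libraries of highest dividing-cell level, against 0.213) and Itch between the lymphodepleted cell types under both labels with quantile normalization. Leaving out 1 library changed 41 signs, none of a called value. Quantile normalization also gave 0 called members instead of 1 for lymphodepletion of WT-labelled M-MDSCs, and 1 instead of 2 for lymphodepleted WT-labelled M-MDSCs against PMN-MDSCs. One fit of all 24 libraries called 2 members instead of 1 for lymphodepletion of WT-labelled PMN-MDSCs. Among omissions chosen after seeing the data, leaving out the 2 PMN-MDSC libraries of highest dividing-cell level gave 4 instead of 2 for lymphodepleted KO-labelled cell types, and leaving out the 3 shallowest gave 1 instead of 3 for untreated KO-labelled ones. The causes were not tested.

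Leaving out each library in turn, called members ranged from 0 to 1 for lymphodepletion of WT-labelled M-MDSCs and of WT-labelled PMN-MDSCs. Between the cell types they ranged from 3 to 4 (untreated WT-labelled), 1 to 3 (lymphodepleted WT-labelled; 1 without M-MDSC library 1 or 2 or PMN-MDSC library 1 or 2 of that group), 1 to 4 (untreated KO-labelled; 1 without PMN-MDSC library 1) and 2 to 3 (lymphodepleted KO-labelled). They stayed at 0 in the other comparisons. The Nedd4 difference between the responses in M-MDSCs ranged from -2.37 to -1.98. Of all genes, 1102 were called higher and 1020 lower for lymphodepletion of WT-labelled M-MDSCs, against 1199 and 747 with edgeR, and 38.1% of calls were higher in WT-labelled PMN-MDSCs, against 61.7% with edgeR.

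With the replicate number as a block, the count of called members was the same in every comparison (1 for lymphodepletion of WT-labelled M-MDSCs and 1 for WT-labelled PMN-MDSCs). Deviations of libraries with the same number correlated between -0.228 and 0.221, and in 0 of 12 comparisons did every pair exceed 0.1. With 3 libraries per group, this cannot tell whether libraries with the same number share a mouse. PMN-MDSC depth and spread limit what can be seen: standard errors of the 7 members in comparisons of 2 groups were 0.19 to 0.40 there, against 0.12 to 0.20 in M-MDSCs.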
